A study of Homo sapiens with 6 samples.

Results

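The Kruppel-like factors measured here were 10 genes, KLF2, KLF3, KLF4, KLF5, KLF6, KLF7, KLF9, KLF10, KLF11 and KLF13, found by symbol among the 60649 genes of a count table from 786-O, an established line of human clear cell renal carcinoma that lacks working VHL. They are not the whole family: 8 further KLF genes and 9 SP genes, their closest relatives, are described beside them. RNA sequencing covered 6 libraries in 3 groups of 2: cells with shRNA1 or shRNA2, separate short hairpin RNAs labelled as a knockdown of the long non-coding RNA LINC02068, and cells labelled shControl and WT. All groups were the same line in the same medium with no further treatment. The labels do not say how the hairpins were delivered, whether lines are pools or clones, or whether replicates are separate cultures, so the spread between replicates may be technical. Total counts ran from 15376448 to 37311846 per library, and 1 CPM (the depth-scaled count unit, with TMM factors) stood for 14.9 to 36.0 counts.

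Kruppel-like factors are transcription factors that bind GC boxes and CACCC elements through C2H2 zinc fingers at the C-terminal end. Their N-terminal parts differ and recruit different partners: KLF2, KLF4, KLF5, KLF6 and KLF7 largely act with acetyltransferases, KLF3 with the CtBP corepressors, and KLF9, KLF10, KLF11 and KLF13 with the SIN3 and histone deacetylase complex. Many of these genes are rapidly induced by growth factors, hormones, stress or fluid flow, and their proteins steer proliferation, differentiation and metabolism. In clear cell renal carcinoma KLF6 is known as an abundant factor tied to lipid metabolism genes.

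The targeted RNA was scarce. Counts of LINC02068 were 9 and 2 under shRNA1, 17 and 10 under shRNA2, and 20 and 32 in the controls. Its log2 fold change for the mean of both hairpins was −1.46 ± 0.59 (SE, edgeR adjusted p = 0.0447). It was called with neither hairpin alone (−1.70 ± 0.75 with shRNA1, adjusted p = 0.0690, and −1.21 ± 0.68 with shRNA2, adjusted p = 0.148). For the mean the call was lost without either shControl library, either shRNA2 library or shRNA1 replicate 2 (adjusted p 0.0972 to 0.219) and in DESeq2 (0.107), so the knockdown itself is weakly measured. The renal factor PAX8 stood at 307 CPM in the controls, and all 8 renal carcinoma markers had counts in every library. Of the 7 tested, 6 were higher for the mean of both hairpins, where 28.6% of all tested genes were. The list's summed level was 6570 to 6580 CPM in the controls and 8180 to 8320 CPM with the hairpins. Most of it was VIM, with a mean of 5150 CPM in the controls and 5940 CPM with each hairpin. KRT8 went from 832 CPM to 1520 CPM with shRNA1 and 1580 CPM with shRNA2. CA9 was not called (0.14 ± 0.12), and NDUFA4L2, with 1 to 23 counts, was not tested. Endothelial markers, relevant because endothelium is rich in KLF2 and KLF4, summed to 1.36 to 1.72 CPM in the controls and 1.28 to 1.99 CPM with the hairpins, neither of 2 tested was called for the mean, and CDH5 had no counts. The 4 leukocyte markers summed to 0.697 to 0.785 CPM and 0.157 to 0.861 CPM, and PTPRC and CD3E had no counts. The 1 tested, CD14, was lower with shRNA1 (−1.81 ± 0.72, edgeR adjusted p = 0.0478) and not called with shRNA2 (0.19 ± 0.59) or for the mean (−0.81). Of 5 fibroblast markers 2 of 3 tested were lower for the mean, where 28.9% of all tested genes were, COL1A2 and DCN had no counts, and the list summed to 16.4 to 16.6 CPM in the controls and 11.8 to 13.2 CPM with the hairpins. The part of the renal, leukocyte and fibroblast lists in the KLF values was not tested.

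Of the 10 KLF genes, 8 were lower with each hairpin and in their mean, and KLF2 and KLF5 did not pass the test. KLF4 fell the most, by 2.47 on the log2 scale, and the other 7 fell by 0.57 to 0.93. The genes were chosen with earlier results of these data known, so the count is a description. Genes were called at an edgeR adjusted p under 0.05 over 16039 tested genes. All 10 KLF genes passed the filter on low counts. By this rule the mean of both hairpins called 57.5% of the genes tested, 28.9% as lower and 28.6% as higher. With shRNA1 52.4% were called (25.6% lower, 26.8% higher) and with shRNA2 52.8% (26.1% lower, 26.7% higher), and 22.4% were lower with both. Under total counts, without TMM factors, 9 KLF genes were lower, where 58.8% of genes were called (37.6% lower, 21.2% higher). Tested against a fold of 1.2, the same 8 were lower, where 39.5% were called (20.2% lower). The median log2 change was −0.68 over the KLF genes and −0.03 over all tested genes. No KLF gene was called higher, at an unadjusted p under 0.05 or in DESeq2 either. In these bulk libraries, less RNA per cell and fewer cells that make it cannot be told apart.

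**Figure D1:**
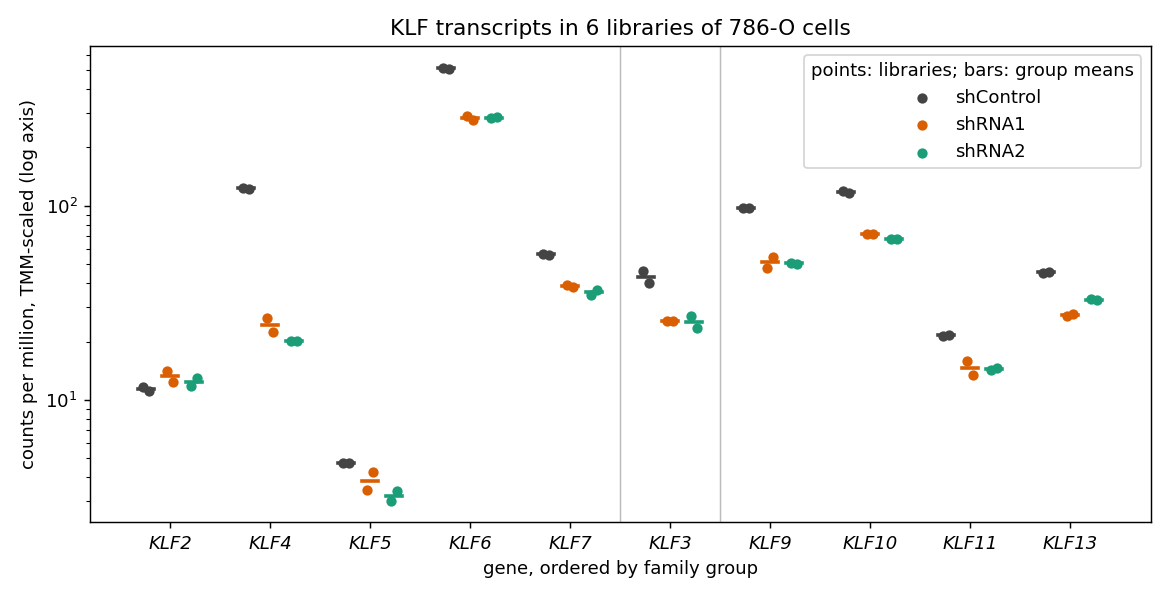
Each point is 1 library and each bar a group mean, in CPM on a log axis, for the 10 genes ordered by the partners of their proteins (activating members, KLF3, SIN3-binding members, split by grey lines). KLF4 shows the widest gap, from 122 and 124 CPM in the controls to 20.1 to 26.5 CPM, while the KLF2 points lie close together at 11.1 to 14.1 CPM.

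The sequences just upstream of the RefSeq starts of 4 of these genes are printed below. Whether 786-O cells use these starts was not tested. KLF4, KLF6 and KLF9 had the largest falls among the 8 genes with a RefSeq promoter entry, and KLF2, the nearest relative of KLF4, was not called. Windows are the 250 bases before the RefSeq start (GRCh38.p14), cut back where GENCODE 29 places an exon, and are written 5′ to 3′ on the gene's strand. Capitals mark matches, on either strand, to the GC box GGGCGG, the element CACCC, the box CCAAT, the cyclic AMP element TGACGTCA or the core ACGTG. Matches may overlap. The KLF4 window is chr9:107489770-107490019 (minus strand), inside the longer GENCODE 29 gene span but in no exon, the KLF6 window chr10:3785282-3785459 (minus strand), the KLF9 window chr9:70414658-70414907 (minus strand) and the KLF2 window chr19:16324576-16324816 (plus strand).
KLF4: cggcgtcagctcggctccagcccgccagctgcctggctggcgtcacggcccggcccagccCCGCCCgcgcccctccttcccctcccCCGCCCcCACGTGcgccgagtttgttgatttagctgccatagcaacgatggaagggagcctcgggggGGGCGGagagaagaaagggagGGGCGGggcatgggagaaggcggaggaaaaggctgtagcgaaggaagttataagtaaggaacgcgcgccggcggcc
KLF6: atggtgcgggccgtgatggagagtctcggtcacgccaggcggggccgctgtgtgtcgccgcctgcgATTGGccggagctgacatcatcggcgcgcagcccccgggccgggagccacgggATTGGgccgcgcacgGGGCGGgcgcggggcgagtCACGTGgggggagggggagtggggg
KLF9: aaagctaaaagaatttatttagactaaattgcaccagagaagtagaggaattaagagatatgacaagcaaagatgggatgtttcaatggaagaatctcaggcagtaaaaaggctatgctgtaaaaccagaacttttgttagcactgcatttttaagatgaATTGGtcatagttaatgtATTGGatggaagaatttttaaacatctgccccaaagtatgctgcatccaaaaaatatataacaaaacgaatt
KLF2: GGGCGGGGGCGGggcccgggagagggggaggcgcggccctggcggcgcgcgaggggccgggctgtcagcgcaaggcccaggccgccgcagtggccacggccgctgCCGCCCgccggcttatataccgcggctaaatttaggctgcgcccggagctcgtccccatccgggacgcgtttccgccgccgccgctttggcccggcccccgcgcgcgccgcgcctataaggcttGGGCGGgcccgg

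The KLF4 window was 69.2% G or C and held 4 GC boxes and the palindrome CACGTG, which matches ACGTG on both strands. KLF6 held the same palindrome, 1 GC box and 2 CCAAT matches in 178 bases of 76.4% G or C. Its uncut 250 bases held 2 GC boxes. KLF9 stood apart, with 32.4% G or C, no GC box and 2 CCAAT matches. KLF2 had 4 GC boxes and 79.3% G or C but no ACGTG. Neither CACCC nor TGACGTCA occurred in any of the 4 windows. Over the 35116 windows of 250 bases in the RefSeq table, 42.6% held GGGCGG, 54.7% CACCC, 32.0% CCAAT, 1.6% TGACGTCA and 18.5% ACGTG. The palindrome, looked for after its matches were seen, was in 6.3%. Those windows were not cut back at exons, unlike the KLF6 and KLF2 windows printed here. These matches describe the windows and show no binding. KLF3 and KLF10 have no entry in the table.

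KLF4, a factor that arrests the cell cycle in epithelia and helps reprogram cells to pluripotency, lies on chromosome 9 at 107484852 to 107490482 (minus strand, GENCODE 29 on GRCh38) and overlaps no annotated gene. It stood at 124 and 122 CPM in the control libraries, 26.5 and 22.4 CPM with shRNA1, and 20.1 CPM in both shRNA2 libraries. Every knockdown library was far below both controls. The log2 fold change was −2.33 ± 0.08 (SE) with shRNA1 (edgeR adjusted p = 3.63e-12) and −2.61 ± 0.08 with shRNA2 (9.28e-13). For the mean of both it was −2.47 ± 0.06 (adjusted p = 9.13e-14), a level 5.54-fold lower. Of the 16039 tested genes, 194 (1.21%) had a lower log2 fold change. KLF4 was also the only KLF gene called lower by more than 1 log2 unit, where 8.09% of all tested genes were. Its processed pseudogene KLF4P1 had at most 1 count per library, as did KLF2-DT, a transcript beside KLF2.

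KLF2, which keeps endothelium and T cells quiescent, lies on chromosome 19 at 16324817 to 16327874 (plus strand). It stood at 11.7 and 11.1 CPM in the controls, 14.1 and 12.4 CPM with shRNA1, and 11.8 and 12.9 CPM with shRNA2. The knockdown libraries lay just above the controls without overlap, a gap as small as that between 11.7 and 11.8 CPM. The change was 0.16 ± 0.12 for the mean of both hairpins, with a 95% interval of −0.09 to 0.41 (edgeR adjusted p = 0.270), so a rise or a small fall is not distinguished. Under total counts it was 0.01 for the mean, and −0.05 with shRNA2. Per kilobase of exon, KLF4 was 5.80 and 6.04 times as abundant as KLF2 in the control libraries and 0.861 to 1.04 times in the knockdown libraries.

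KLF5 promotes proliferation of gut and bladder epithelium and lies on chromosome 13 at 73054976 to 73077542 (plus strand). It was the scarcest of the 10, with 4.72 and 4.71 CPM in the controls, 3.43 and 4.24 CPM with shRNA1 and 3.03 and 3.40 CPM with shRNA2. Its 51 to 132 counts per library limit the precision. All knockdown libraries were below both controls, yet the change of −0.43 ± 0.21 was not called (95% interval −0.86 to 0.01, edgeR adjusted p = 0.0908). Under total counts it was called lower (−0.58, adjusted p = 0.0238).

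KLF6, a ubiquitous factor induced by tissue injury, was the most abundant member in every library. It lies on chromosome 10 at 3775996 to 3785281 (minus strand). Its level was 516 and 508 CPM in the controls, 292 and 276 CPM with shRNA1, and 283 and 287 CPM with shRNA2. Controls and knockdowns were well apart, and both hairpins gave the same size of change, −0.85 ± 0.04 with each (edgeR adjusted p = 4.18e-11 with shRNA1 and 3.86e-11 with shRNA2). KLF7, its close relative, acts in neurons and adipose tissue and lies on chromosome 2 at 207074137 to 207167267 (minus strand). It went from 56.6 and 56.1 CPM to 39.1 and 38.4 CPM with shRNA1 and to 34.9 and 36.8 CPM with shRNA2. The fall was 0.54 and 0.65 on the log2 scale (SE 0.07 each), and 0.60 for the mean of both hairpins (adjusted p = 7.21e-07). KLF7-IT1, an intronic transcript of the locus, had at most 4 counts.

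KLF3 represses transcription through CtBP in erythroid, B and fat cells. It lies on chromosome 4 at 38664196 to 38701042 (plus strand). It stood at 46.1 and 40.1 CPM in the controls, the widest relative spread of any member there, and at 25.4 CPM in both shRNA1 libraries and 27.2 and 23.4 CPM with shRNA2. The groups did not overlap, and the change was −0.76 ± 0.10 with each hairpin and −0.76 ± 0.08 for their mean (edgeR adjusted p = 1.41e-06). The antisense gene KLF3-AS1 shares 266 exonic bases with it. It had 4 and 23 counts in the controls and 0 to 10 in the knockdowns, against 378 to 1124 for KLF3. The pseudogene KLF3P1 had at most 2 counts. The strand setting of the counting is not given, so reads in the shared stretch may belong to either.

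Among the SIN3-binding members, KLF9 and KLF10 were the most abundant. KLF9, a glucocorticoid and thyroid hormone target, lies on chromosome 9 at 70384597 to 70414624 (minus strand). It had 97.1 and 97.7 CPM in the controls, 47.6 and 54.6 CPM with shRNA1, and 51.0 and 50.4 CPM with shRNA2. The change was −0.93 ± 0.07 and −0.94 ± 0.07, after KLF4 the lowest among the 10, and −0.93 ± 0.06 for the mean (edgeR adjusted p = 1.96e-09). KLF13, a regulator of T cell cytokines and cholesterol handling, lies on chromosome 15 at 31326855 to 31435665 (plus strand). It went from 45.3 and 45.8 CPM to 27.1 and 27.8 CPM with shRNA1 and 33.0 and 32.7 CPM with shRNA2. Both shRNA1 libraries were below both shRNA2 libraries. The change was −0.73 ± 0.08 with shRNA1 and −0.47 ± 0.08 with shRNA2, and −0.60 ± 0.07 for the mean (adjusted p = 1.66e-06).

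KLF10 and KLF11 are the TGF-beta inducible early genes, which restrain SMAD7 and cell growth. KLF10, on chromosome 8, stood at 119 and 117 CPM in the controls, 71.6 and 71.9 CPM with shRNA1, and 67.8 and 67.6 CPM with shRNA2. Replicates differed by less than 2 CPM, and the change was −0.72 ± 0.05 and −0.80 ± 0.05 (edgeR adjusted p = 2.50e-08 and 5.72e-09). KLF11 lies on chromosome 2 at 10042849 to 10054836 (plus strand). It stood at 21.4 and 21.7 CPM in the controls, 15.9 and 13.4 CPM with shRNA1, and 14.3 and 14.6 CPM with shRNA2. The change was −0.56 ± 0.12 and −0.57 ± 0.12, and −0.57 ± 0.10 for the mean (adjusted p = 1.99e-04). An antisense gene, AC104794.4, overlaps 416 exonic bases of KLF11 and had no counts in any library.

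Between the hairpins no difference in a KLF gene was called. None of the 10 differed between shRNA1 and shRNA2 by edgeR, where 0.0312% of all tested genes were called, or by DESeq2, and 2 had an unadjusted p under 0.05. KLF4 was 0.28 higher with shRNA1 on the log2 scale (95% interval 0.10 to 0.46, edgeR adjusted p = 0.905). KLF13 was lower with shRNA1, at −0.26 (−0.44 to −0.09, edgeR adjusted p = 0.905). For KLF6 the interval was −0.08 to 0.07, and for KLF9 −0.14 to 0.17. Both hairpins were set against the same control libraries, so their changes share that error. In 9 members all knockdown libraries lay below both controls, as in 34.2% of all tested genes, and in KLF2 all lay above, as in 32.7%.

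**Figure D2:**
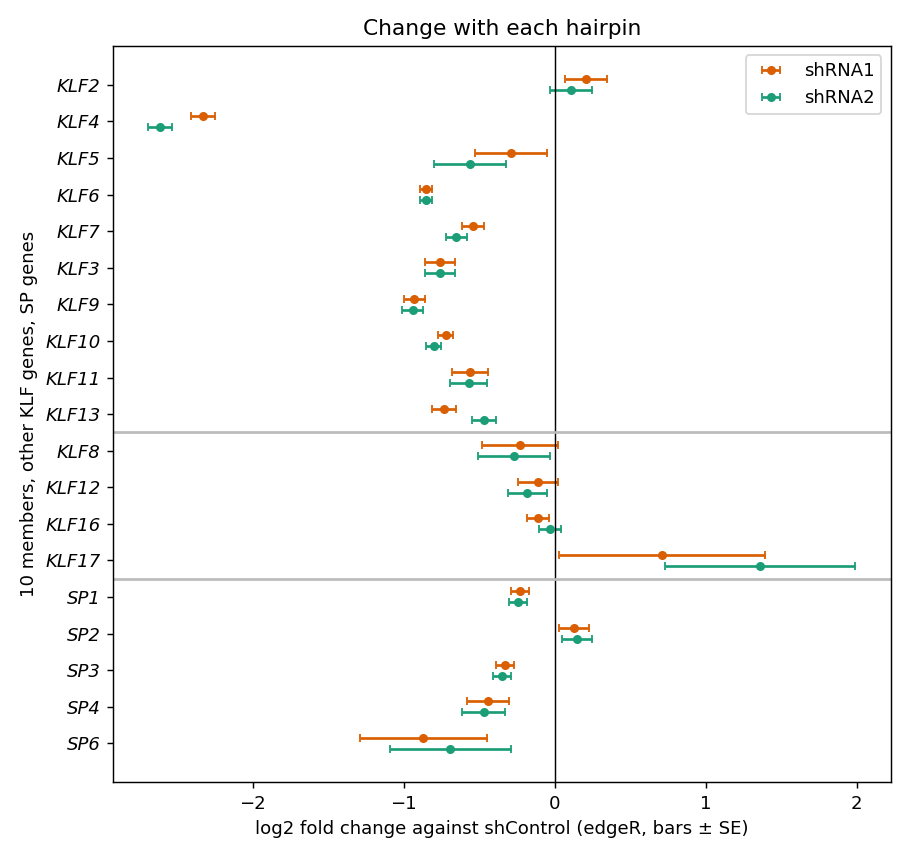
Points give the log2 fold change against shControl with shRNA1 and shRNA2 and bars the SE, for the 10 KLF genes (top), the 4 other tested KLF genes and the 5 tested SP genes (bottom), split by grey lines. KLF4 lies apart at −2.33 and −2.61, and the other called members lie between −0.94 and −0.47.

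The rest of the family was not called. Of 8 further KLF genes, KLF1, KLF14, KLF15 and KLF18 had no counts in any library. For the mean of both hairpins the 4 others were tested, none was called by edgeR or DESeq2, and none had an unadjusted p under 0.05. KLF16, another SIN3-binding factor, stood at 53.7 and 51.7 CPM in the controls, 48.6 and 49.2 CPM with shRNA1 and 51.5 and 52.0 CPM with shRNA2, so its groups overlapped. Its change was −0.07 ± 0.06 (95% interval −0.19 to 0.06). The antisense gene AC012615.3 shares 483 exonic bases with KLF16, and reads there may belong to either. No gene of that symbol was in the count table, so its level is not known here. The CtBP-binding relatives of KLF3 gave −0.14 for KLF12 (−0.38 to 0.09) and −0.25 for KLF8 (−0.69 to 0.20). KLF17, with 6 to 31 counts, gave 1.04 (−0.21 to 2.28). Under total counts KLF12 (−0.30, edgeR adjusted p = 0.0311) and KLF16 (−0.22, 0.00439) were called lower. Among the SP factors, 3 of 5 tested genes were lower and none higher, with a median of −0.34, where 28.9% of all tested genes were lower and 28.6% higher. SP1, the general GC box factor, changed by −0.23 ± 0.05 (adjusted p = 0.00152), SP3 by −0.34 ± 0.05 (2.90e-05) and SP4 by −0.45 ± 0.12 (0.00467). None of these passed a test against a fold of 1.2, and SP4 lost its call without shControl replicate 2 (−0.37, adjusted p = 0.0958). SP2 (0.14 ± 0.08, or −0.02 under total counts) and SP6 (−0.78 ± 0.35) were not called. SP6 was called lower under total counts (−0.93, 0.0307), with a stricter filter on low counts (−0.80, 0.0493) and without shRNA1 replicate 2 (−1.06, 0.0250). No SP gene had an unadjusted p under 0.05 as higher, and DESeq2 called none higher.

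Per kilobase of exon, the order of the KLF transcripts differed between controls and knockdowns, mainly in the place of KLF4. In the controls KLF6 led with 83.4 ± 0.89 CPM per kb (SD, n = 2), followed by KLF4 (33.6 ± 0.34), KLF10 (29.5 ± 0.28), KLF9 (18.8 ± 0.09) and, outside the 10, KLF16 (17.8 ± 0.49). KLF3 (6.85 ± 0.68), KLF7 (6.08 ± 0.04) and KLF2 (5.67 ± 0.22) came next, then KLF13 (4.84 ± 0.04), KLF11 (4.69 ± 0.06), KLF12 (1.44 ± 0.08), KLF5 (1.21), KLF8 (0.57 ± 0.03) and KLF17 (0.11 ± 0.01). No neighbours in this order overlapped between the 2 control libraries, with narrow gaps from KLF3 to KLF7 and from KLF13 to KLF11. With shRNA1 the order began with KLF6 (46.2 ± 1.90), KLF10 (17.9 ± 0.05), KLF16 (16.5 ± 0.12) and KLF9 (9.88 ± 0.96), and KLF4 (6.69 ± 0.79) and KLF2 (6.58 ± 0.58) could not be ranked. With shRNA2 KLF4 was at 5.50 and KLF2 at 6.11 ± 0.38. The 10 members summed to 193 and 196 CPM per kb in the controls and to 99.7 to 104 in the knockdown libraries. KLF6 made up 40.4% of that fall with shRNA1 and 39.1% with shRNA2, and KLF4 29.2% and 29.7%. The share of KLF4 in the level of all 18 KLF genes went from 15.6% to 5.52% and 4.59%, while that of KLF6 was 38.9% in the controls and 38.2% and 38.8% with the hairpins. KLF16, whose level was not called as changed, went from 8.31% to 13.7% and 14.6%.

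**Figure D3:**
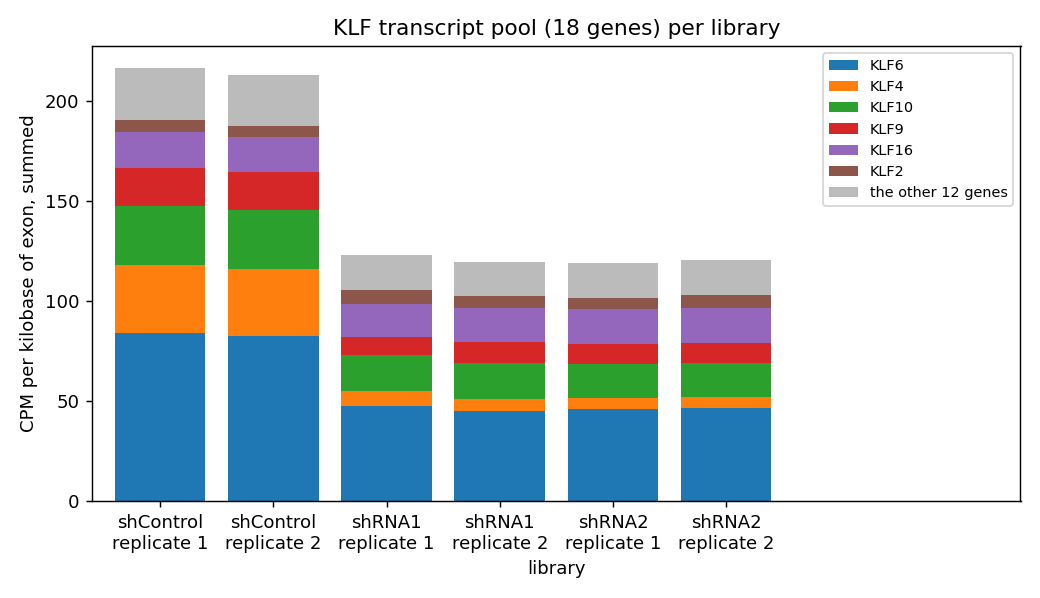
Bars give the level of 18 KLF genes in each library, in CPM per kilobase of exon, stacked by gene from 0. The total was 213 and 216 in the control libraries and 119 to 123 in the knockdown libraries, and the KLF4 segment shrank most in proportion.

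Genes of the pathways around these factors moved in both directions. These lists were chosen with earlier results known, and their counts are set against 28.6% higher and 28.9% lower among all tested genes. Of 15 corepressors and coactivators, 7 were higher, 7 lower and 1 not called (median −0.01). HDAC1, a deacetylase of the SIN3 complex, rose by 0.94 ± 0.04 and KDM1A, the demethylase of the CoREST complex, by 0.52 ± 0.05. Other SIN3 complex genes moved less and in both directions. SIN3A changed by 0.16 ± 0.04, HDAC2 by 0.14 ± 0.05, SIN3B by −0.23 ± 0.05 and SAP30 by −0.64 ± 0.11. NCOR1, a nuclear receptor corepressor, fell by 0.35 ± 0.03 and RCOR1 by 0.44 ± 0.07. Under total counts 2 of the 15 were higher, 8 lower and 5 not called, so most of the 7 calls as higher depended on the scaling.

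In the MEKK3, ERK5 and MEF2 arm, which drives KLF2 and KLF4 in endothelium and is held down by the CCM complex, 2 of 13 genes were higher, 5 lower and 6 not called (median −0.13), and under total counts 2 were higher and 8 lower. MEF2A went from 77.3 CPM to 39.7 CPM with shRNA1 and 38.9 CPM with shRNA2 (−0.98 ± 0.06) and MEF2D from 99.4 CPM to 61.8 and 66.0 CPM (−0.64 ± 0.05). MAP3K2, the kinase MEKK2, changed by −0.87 ± 0.06, and the CCM gene CCM2 by 0.65 ± 0.04. The kinases of the arm moved in both directions. MAPK7, which encodes ERK5, rose by 0.61 ± 0.10, and MAP3K3, which encodes MEKK3, was not called (0.02 ± 0.09). MAP2K5, another kinase of this list, fell by 0.63 ± 0.10 (edgeR adjusted p = 6.09e-05). Of 6 enzymes known to add or remove ubiquitin on KLF proteins, 3 were higher, 2 lower and 1 not called. FBXO32, a ligase subunit for KLF4, went from 22.5 CPM to 6.52 and 5.57 CPM (−1.89 ± 0.15, edgeR adjusted p = 3.93e-08), and SIAH1, a ligase for KLF10, fell by 0.72 ± 0.08. WWP1, a ligase for KLF5, rose by 0.58 ± 0.05, and BAP1, a deubiquitinase for KLF5, by 0.30 ± 0.04. BAP1 did not pass a test against a fold of 1.2 (adjusted p = 0.130).

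Hormone and growth factor genes upstream of KLF9, KLF10 and KLF11 were mostly lower. Of 6 tested genes of the glucocorticoid response, 4 were lower, 1 higher and 1 not called (median −0.65). The receptor gene NR3C1 went from 186 CPM to 91.0 CPM with shRNA1 and 90.3 CPM with shRNA2 (−1.04 ± 0.04, edgeR adjusted p = 6.99e-12). The clock gene PER1, like KLF9 a known receptor target, fell by 1.06 ± 0.06, TSC22D3 by 0.91 ± 0.05 and the phosphatase gene DUSP1 by 0.39 ± 0.02. FKBP5, also a receptor target, went the other way (0.35 ± 0.08; chosen after its values were seen). Of 9 genes of the TGF-beta arm, 6 were lower, 3 not called and none higher (also at an unadjusted p under 0.05 and in DESeq2), with a median of −0.30. Under total counts all 9 were lower. The signal carrier SMAD3 fell by 0.83 ± 0.04, the inhibitor SMAD7 by 0.60 ± 0.06 and SMAD2 by 0.30 ± 0.05. SMAD2 did not pass a test against a fold of 1.2 (adjusted p = 0.188).

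Known target genes of KLF proteins did not follow a common direction. Of 13, 9 were expressed enough to test, and 2 were higher, 5 lower and 2 not called (median −0.46). CDKN1A, the p21 cell cycle inhibitor induced by KLF4 and KLF6, went from 207 CPM to 65.2 CPM with shRNA1 and 67.5 CPM with shRNA2 (−1.64 ± 0.05, edgeR adjusted p = 3.09e-12). CCND1, cyclin D1, which KLF5 induces and KLF4 represses in other cells, went from 1470 CPM to 535 and 536 CPM (−1.45 ± 0.03). PDGFA, a growth factor induced by KLF5, fell by 0.64 ± 0.07. BIRC5, another gene of this list, rose by 0.32 ± 0.04 (edgeR adjusted p = 8.11e-06). S1PR1, a lipid receptor induced by KLF2, rose from 19.1 CPM to 43.7 and 46.4 CPM (1.24 ± 0.07, edgeR adjusted p = 1.12e-09). THBD, also a known KLF2 target, went the other way (−1.62 ± 0.23, edgeR adjusted p = 1.92e-05).

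The genes whose profile over the 6 libraries lay nearest to that of KLF4 were ABI3BP, VEGFA and CTH, at Euclidean distances of 0.264, 0.344 and 0.351 in log2 CPM centred on the controls. Their changes were −2.52 ± 0.10, −2.42 ± 0.03 and −2.64 ± 0.09. Nearest to KLF2, at the flat end of the family, were ESF1, FAM120C and KIAA0232, at 0.0574, 0.0744 and 0.0764, with changes of 0.15, 0.18 and 0.14. With 3 groups, such likeness mostly reflects a like step between control and knockdown.

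**Figure D4:**
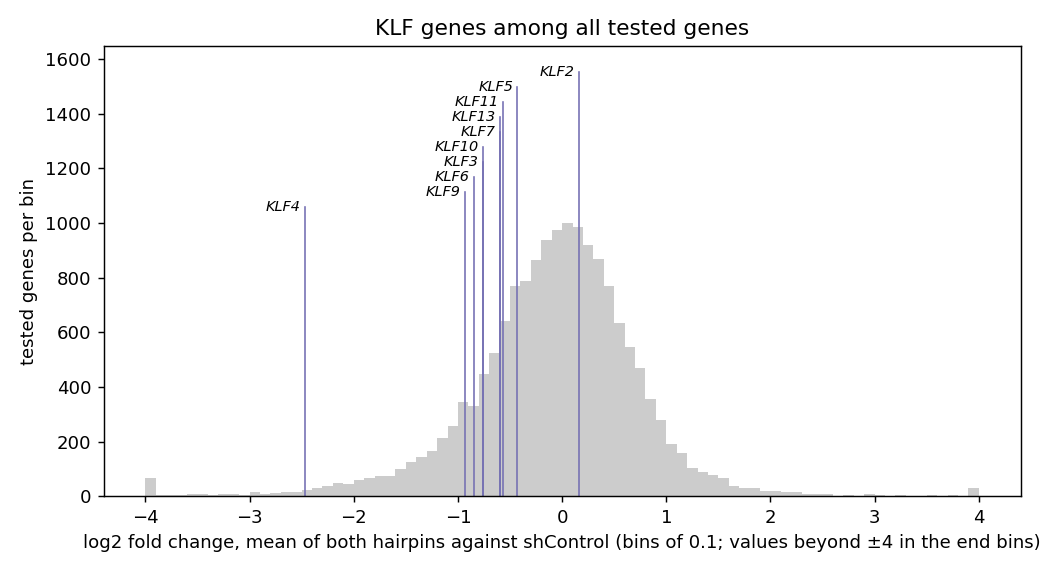
Grey bars count all 16039 tested genes by log2 fold change for the mean of both hairpins, in bins of 0.1, and purple lines mark the 10 KLF genes. KLF4 lies in the lower tail, where 1.21% of genes had a lower value, 8 lie between −0.93 and −0.43 and KLF2 lies at 0.16, above 61.5% of genes.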

How the data were processed

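Whole-number counts per gene were deposited by the authors as a table of 60649 genes and 6 libraries. Per the submitters' processing notes, FastQC 0.11.9, Trim Galore 0.6.7, HISAT2 2.2.1 and StringTie 2.2.1 were used with build hg38. Counting tool, annotation release and strand setting stand as not given in the sources used here.

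The KLF genes and the lists around them were chosen with earlier results of these data known. Analyses used R 4.3.3 with edgeR 4.0.16, limma 3.58.1 and DESeq2 1.42.0. Genes passing filterByExpr (16039, 99.9% of counts) were scaled by TMM and fitted with edgeR's robust quasi-likelihood model on the 3 group means, over all 6 libraries. P-values were adjusted by Benjamini-Hochberg over all tested genes. The standard error is the log2 fold change divided by the root of its F statistic. Levels per kilobase use the union of exons in GENCODE 29, which holds 96.3% of the gene IDs. Intervals cover the model's error only. The fit was tested on simulated counts of 16039 genes, with 100 genes changed by 1 log2 unit and 100 by 2. For the mean of both hairpins edgeR recovered 64% and 85% of them, with 21 false calls. Far fewer genes were changed there than were called in the data, so that setting was not tested.

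Genes were named by a rule: the 10 KLF genes, other tested KLF and SP genes, pseudogenes and non-coding neighbours named after a KLF gene that had any counts, LINC02068, the 4 genes of each list with the smallest p, and the 3 nearest profiles to the highest and lowest KLF gene. Of marker lists only sums, defining genes, CD14, VIM, KRT8, CA9 and NDUFA4L2 are given, the last 4 added after values were seen. FKBP5, MAPK7, MAP3K3, THBD, SIN3A, SIN3B, HDAC2, SAP30 and AC104794.4, an antisense gene sharing exons with KLF11, were named after values were seen. So were MAP2K5 and BIRC5. AC012615.3, which shares exons with KLF16, was also named outside the rule and has no values here. Some genes of these lists are not reported here by name. Alternatives were DESeq2, RLE factors, total counts, no filter or a stricter one (a mean CPM of 1 and, in 2 libraries, 10 counts), a replicate block, the compared groups alone, a test against a fold of 1.2, and each library left out.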

Additional observations from a re-analysis of the deposited data

How the results depend on the processing

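The 8 KLF genes called lower for the mean of both hairpins stayed called and lower in all 13 alternatives run, with KLF4 at −2.63 to −2.39, KLF3 at −0.92 to −0.67, KLF9 at −1.09 to −0.87 and KLF11 at −0.72 to −0.49. The count was 8 in each, or 9 under total counts, where KLF5 was added, and the same held with shRNA2 alone. With shRNA1 alone it was 8 throughout. Leaving out each library in turn gave 8 to 8 members, and 0 to 0 between the hairpins. KLF2 was not called in any. A test against a fold of 1.2 kept all 8 as lower, where 20.2% of all tested genes passed as lower. Total counts moved the median of all genes from −0.03 to −0.18, and the shares of all tested genes called from 28.6% higher and 28.9% lower to 21.2% and 37.6%. Among genes named by the rule, total counts reversed SP2 (−0.02), ESF1 (−0.01) and KIAA0232 (−0.01), none of them called. Over all genes, 5 differed between the hairpins, against 17 in DESeq2, 69 with no filter, 9 with the block, 16 with the compared groups alone and 12 to 31 with a library left out. With the replicate block the count of KLF genes called was 8 with shRNA1, with shRNA2 and for their mean, and 0 between the hairpins. The block ended the call of LINC02068 (−1.52, edgeR adjusted p = 0.0506) and changed no other call among genes named by the rule. The labels do not say that the numbers pair libraries, and the differences between replicates correlated at −0.03 to 0.01 across groups. Replicates differed beyond sampling noise (chi-square per degree of freedom 4.44 to 6.52), so none was counted as a duplicate. Depth limits KLF5, KLF8, KLF17 and SP6.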
